A study of Mus musculus with 4 samples.

Results

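Viral restriction factors are proteins that a cell makes to stop a virus at one step of its life cycle. The 10 genes described here were taken from a list of names that was chosen with earlier results of these data known. They are *Mx1* and *Mx2* (Mx GTPases), *Rsad2* (viperin), *Eif2ak2* (the kinase PKR), *Bst2* (tetherin), *Apobec3*, and *Ifitm1*, *Ifitm2*, *Ifitm3* and *Ifitm6*. Of these, 9 genes had a probe that carried their symbol alone, 1 probe each, among the 19938 genes that could be tested. *Ifitm2* was present only on a probe shared with the symbol LOC631287, so it is given as that probe and is not counted among the 9 genes. The probes are therefore 10 of 26423 on the array.

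The macrophages came from the peritoneal cavity of C57BL/6 mice and were kept in culture. Cells of the LPS group (2 samples) were treated for 6 h with 100 ng/ml lipopolysaccharide (LPS), the outer membrane glycolipid of Gram-negative bacteria that Toll-like receptor 4 recognises, and cells of the PBS group (2 samples) received buffer. The labels name no other agent or altered allele in either group and give no age of the mice. Each RNA was hybridised to its own single-colour Mouse OneArray Plus microarray, and the labels call the samples biological replicates but do not tell whether separate animals or cultures were used. The spread behind each p-value may therefore be technical.

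Most of these genes are interferon-stimulated genes. In macrophages, LPS leads through the adaptor TRIF and the factor IRF3 to secretion of interferon beta, which acts back on the cells. The receptor then activates a transcription factor complex that holds STAT2 and IRF9 and binds a DNA element called ISRE in promoters of its targets. The products act at different steps: IFITM proteins at entry, Mx proteins and PKR after entry, and APOBEC3 during reverse transcription. Viperin can act while viral RNA is made, and tetherin acts late, by holding budding virions on the cell surface.

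Promoter sequences were read from RefSeq (GRCm38.p6) to show which of these genes carry the ISRE letters close to their start. The table held 8 of the 10 genes, all but *Mx1* and *Mx2*, in windows that run over 250 bases before and 50 bases after a start. The letters GAAANNGAAA, where N is any base, were searched on both strands with overlapping matches kept. They were found for 6 of the 8 genes, against 3.99% of all 27025 genes in the table (3.44% of 32851 windows). *Apobec3* had 2 windows, with 1 match between them. *Ifitm1* and *Ifitm6* had no match. The 30 bases around the matches are printed 5′ to 3′ along the gene, with the matching letters in capitals.
Rsad2 (chr12:26456553-26456582, minus strand): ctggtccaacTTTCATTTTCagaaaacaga
Eif2ak2 (chr17:78882535-78882564, minus strand): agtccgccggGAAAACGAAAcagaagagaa
Bst2 (chr8:71537580-71537609, minus strand): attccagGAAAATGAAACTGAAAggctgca
Apobec3 (chr15:79892258-79892287, plus strand): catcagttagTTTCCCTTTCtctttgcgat
Ifitm3 (chr7:141010715-141010744, minus strand): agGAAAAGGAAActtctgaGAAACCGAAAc
Ifitm2 (chr7:140955988-140956017, minus strand): ccaccaacagGAAAAGGAAAttgctagaga

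In *Bst2* there were 2 matches that overlap, from 130 to 115 bases before the start. *Ifitm3* also had 2, both just after the start, and *Eif2ak2* had its match after the start too. In *Rsad2* and *Apobec3* the match lies on the opposite strand, so the capitals read as its reverse complement. The letters TTCNNNGAA, a second interferon-response element called GAS, occurred in the windows of *Bst2*, *Ifitm3*, *Ifitm6* and *Eif2ak2*, that is 4 of the 8 genes, against 9.55% of all genes and 8.30% of all windows. A match describes the letters only and does not show that a factor was bound. *Ifitm3* and *Ifitm2* had ISRE matches, although neither *Ifitm3* nor the shared probe of *Ifitm2* passed the test described below. Whether the letters go with a rise was not tested. The 250 bases before the start are given in full for *Rsad2*, the gene with the largest change among those in the promoter table, and for *Ifitm6*, the gene with the lowest, which had none of the ISRE letters to mark.
Rsad2 (chr12:26456453-26456702, minus strand): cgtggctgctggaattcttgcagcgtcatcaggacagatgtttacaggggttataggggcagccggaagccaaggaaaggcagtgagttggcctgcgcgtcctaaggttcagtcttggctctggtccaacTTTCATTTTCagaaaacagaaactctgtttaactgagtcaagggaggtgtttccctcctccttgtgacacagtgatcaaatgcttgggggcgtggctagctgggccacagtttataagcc
Ifitm6 (chr7:141016893-141017142, minus strand): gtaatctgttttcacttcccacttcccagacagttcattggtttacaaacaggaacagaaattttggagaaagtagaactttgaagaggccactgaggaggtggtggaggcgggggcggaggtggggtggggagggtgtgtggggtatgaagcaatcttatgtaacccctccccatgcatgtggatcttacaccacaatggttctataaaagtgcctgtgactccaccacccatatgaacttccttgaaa

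Signals were quantile-normalized between arrays and put on the log2 scale, so that a difference of 1 is a doubling; the groups were compared with limma, and p-values were adjusted over the 19938 genes (Benjamini-Hochberg). A gene passed the test at an adjusted p under 0.05. Of the 9 genes, 6 rose with LPS (*Mx1*, *Rsad2*, *Mx2*, *Eif2ak2*, *Bst2* and *Apobec3*) and 0 fell, against 3.22% of all genes that rose and 2.32% that fell. *Ifitm3*, *Ifitm1* and *Ifitm6* did not pass. These are levels in whole samples, in which a change in the RNA per cell and a change in the share of a cell type cannot be told apart. Both LPS arrays lay above both PBS arrays for 8 of the 9 genes and below them for 1, *Ifitm6*, against 32.2% and 27.5% of all genes. The median log2 fold change of the 9 genes was 2.22, against 0.04 over all genes. Since the list was chosen with earlier results known, these counts and this median only describe it. When each probe was tested on its own, 6 of the 10 probes rose, the same genes, against 2.68% of all probes.

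**Figure D1:**
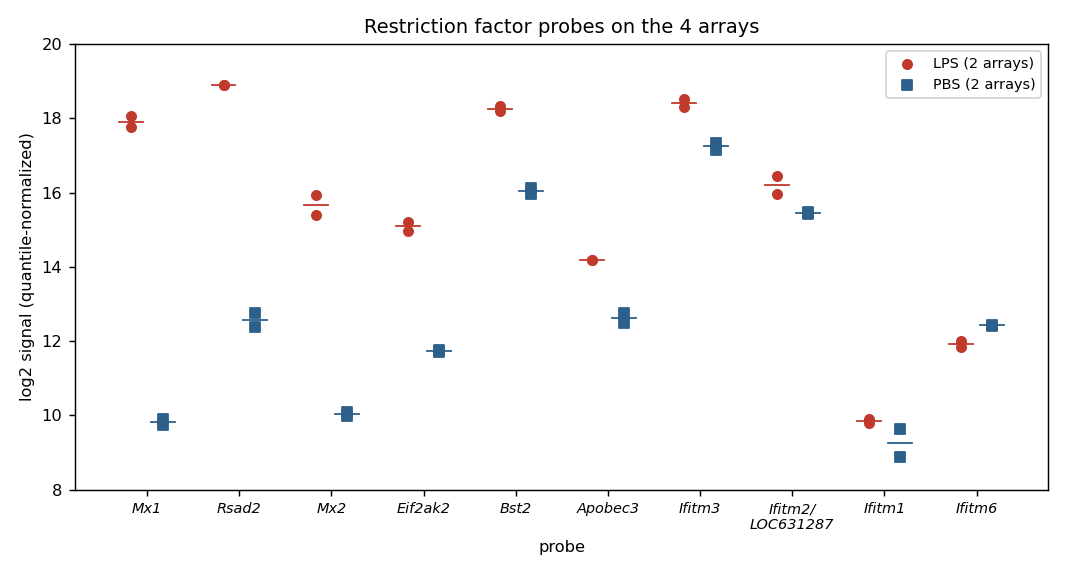
Log2 signal after quantile normalization (y axis) of the 10 restriction factor probes (x axis) on the LPS arrays (red circles) and the PBS arrays (blue squares), with a line at each group mean; levels of different probes cannot be compared. Both LPS arrays lie above both PBS arrays for every probe but that of *Ifitm6*, and for *Mx1* the groups are 8.07 apart.

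LPS replicate 1 was the dimmest array. Before scaling, its median signal was 683, against 1054 on the other LPS array and 1026 and 1047 on the PBS arrays, and 55.8% of its probes exceeded background, meaning a detection p under 0.05, against 61.7% to 63.3% on the others. Over all genes 642 rose and 462 fell, so 58.2% of calls were rises. With scaling to the 75th percentile this share was 75.2%, and in the second table that the authors deposited it was 74.7%. With cyclic loess it was 67.3%, and with no scaling between arrays 58.8%. Macrophage markers were above background on all 4 arrays for 8 of the 9 measured, with summed linear levels of 720870 and 594953 with LPS and 802607 and 677612 with PBS. The Fc receptor gene *Fcgr1* was the 1 macrophage marker to pass (log2 fold change 2.33, limma adjusted p 0.0348). *Timd4* had a larger log2 fold change of 2.54 and *Csf1r* had −1.15, without overlap of the groups for either. Neither passed (limma adjusted p 0.0538 and 0.0839). Lists of B, T, mast, dendritic and plasmacytoid dendritic cells, neutrophils and eosinophils held no gene that passed the test, with sums of 2374 to 9002 with LPS and 1426 to 7843 with PBS. Markers not above background on any array were 2 of 5 for B cells, 2 of 5 for T cells (*Cd3d*, *Cd4*), 1 of 5 for neutrophils (*S100a8*), 2 of 4 for mast cells (*Kit*, *Fcer1a*), 3 of 4 for dendritic cells and 1 of 3 for plasmacytoid dendritic cells (*Siglech*). The sum of the 3 plasmacytoid dendritic cell markers measured was 9002 and 7182 with LPS and 5394 and 4621 with PBS, higher on both LPS arrays. The same held for dendritic cells (3056 and 3762 with LPS, 2187 and 2931 with PBS) and eosinophils (2621 and 2374 with LPS, 2004 and 1426 with PBS), while the mast cell sum was lower on both (2560 and 3103 with LPS, 3333 and 3535 with PBS). The part of these markers in the results was not tested.

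*Mx1* had the largest change of the 9 genes and the third largest of all genes. Mx proteins are dynamin-like GTPases that assemble on viral ribonucleoproteins, and mouse MX1 acts in the nucleus against influenza virus. The deposited *Mx1* signals were 223354 and 301693 in LPS replicates 1 and 2, against 1032 and 953 in PBS replicates 1 and 2. On the log2 scale they were 17.75 and 18.05 with LPS and 9.90 and 9.75 with PBS. Both PBS arrays were above background, and the groups were far apart relative to the spread within either. The change on the log2 scale was 8.07 (SE 0.22, 95% interval 7.50 to 8.65), or 270-fold, with an adjusted p of 0.00162 in limma.

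*Mx2*, whose mouse protein is cytoplasmic and acts against vesicular stomatitis virus, rose less than *Mx1*. Its signals were 39340 and 67921 with LPS and 1178 and 1111 with PBS, or 15.40 and 15.94 against 10.09 and 9.98 on the log2 scale. LPS replicate 2 was the higher of the LPS arrays for both *Mx* genes. The log2 fold change of *Mx2* was 5.64 (SE 0.26, 95% interval 4.96 to 6.31), or 49.7-fold, with a limma adjusted p of 0.00238. The intervals of the *Mx1* and *Mx2* changes did not overlap.

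The *Mx* genes lie side by side on chromosome 16, *Mx1* at 97447035 to 97462906 and *Mx2* at 97536081 to 97560901 (GRCm38.p6), 73.2 kb apart. RefSeq annotates both as transcribed pseudogenes in this C57BL/6J assembly. As background, C57BL/6 and most other laboratory strains carry an *Mx1* that lacks coding exons and an *Mx2* with a frameshift, so that neither makes a working protein. The values here are therefore levels of RNA from these loci. Probe sequences were not used here, and whether either probe also took up RNA of the other gene was not tested.

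*Rsad2* encodes viperin, a radical SAM enzyme of the endoplasmic reticulum and lipid droplets whose human form turns CTP into a nucleotide that ends viral RNA chains. Its signals were 493261 and 536699 with LPS, against 8076 and 5597 with PBS. On the log2 scale these were 18.90 and 18.90 with LPS and 12.75 and 12.38 with PBS. The probe was the seventh brightest on each LPS array, and quantile normalization gives probes of equal rank the same value, so the SD of 0 between the LPS arrays is not a measure of their spread. On both LPS arrays its deposited signal was about 82% of that of the brightest probe (82.5% and 81.9%), and whether such signals approached the limit of the scanner was not tested. The log2 fold change was 6.34 (SE 0.23, 95% interval 5.75 to 6.92), or 80.8-fold, with an adjusted p of 0.00167 in limma. Its interval overlapped that of *Mx2* and not that of *Mx1*.

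*Cmpk2*, which encodes a mitochondrial nucleotide kinase, is the neighbour of *Rsad2* on chromosome 12, with 12.7 kb between them (*Rsad2* at 26442743 to 26456452, *Cmpk2* at 26469117 to 26479837). Its log2 signals were 18.93 and 18.88 with LPS and 11.85 and 11.21 with PBS. The log2 fold change was 7.38 (SE 0.28), with an adjusted p of 0.00167 in limma, so both genes of the pair rose by more than 6 on the log2 scale.

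*Eif2ak2* encodes PKR, a kinase that double-stranded RNA switches on and that halts translation by phosphorylating the initiation factor eIF2 alpha. Its signals were 27960 and 40433 with LPS and 3803 and 3677 with PBS, or 14.95 and 15.22 against 11.69 and 11.75 on the log2 scale. The groups did not overlap, and the wider spread was between the LPS arrays. The log2 fold change was 3.37 (SE 0.22, 95% interval 2.81 to 3.92), or 10.3-fold, with a limma adjusted p of 0.00436. The gene lies on chromosome 17 at 78850504 to 78882572.

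None of the other kinases of eIF2 alpha passed the test. *Eif2ak1* (HRI, active when haem is short) had a log2 fold change of 0.29, *Eif2ak3* (PERK, of endoplasmic reticulum stress) of −0.92 and *Eif2ak4* (GCN2, of amino acid starvation) of −1.34. Their limma adjusted p-values were 0.428, 0.154 and 0.0501, and *Eif2ak4* lay just outside the threshold with both LPS arrays (10.81 and 10.67) below both PBS arrays (11.85 and 12.31). *Prkra*, whose product PACT binds and activates PKR, fell, with log2 signals of 12.43 and 12.46 with LPS and 13.69 and 14.08 with PBS. Its log2 fold change was −1.44 (SE 0.23, limma adjusted p 0.0371). *Dnajc3*, which encodes an inhibitor of PKR, had log2 fold changes of 0.28 and −0.37 on its 2 probes, and neither passed. *Eif2s1*, the gene of eIF2 alpha itself, exceeded background on 0 of 2 LPS arrays and 2 of 2 PBS arrays, at levels too close to background for a bound.

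*Bst2* encodes tetherin, a membrane protein with an anchor at each end that ties newly formed enveloped virions to the cell. Its signals were 343216 and 338736 with LPS and 80881 and 54385 with PBS, or 18.32 and 18.19 against 16.11 and 15.97 on the log2 scale. This gave a log2 fold change of 2.22 (SE 0.21, 95% interval 1.68 to 2.75), or 4.64-fold, with a limma adjusted p of 0.00952. The arrays of the 2 groups were well apart. Leaving out PBS replicate 1 or 2 ended the call (limma adjusted p of 0.0802 and 0.117).

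*Apobec3*, the 1 mouse gene of its group, encodes a cytidine deaminase that is packed into retroviral particles. Its signals were 15700 and 19413 with LPS and 8195 and 6037 with PBS. On the log2 scale they were 14.17 and 14.19 with LPS and 12.77 and 12.49 with PBS, so the LPS arrays were nearly equal and the PBS arrays differed more. Its change was 1.55 on the log2 scale (SE 0.22, 95% interval 1.00 to 2.10), or 2.93-fold, with a limma adjusted p of 0.0262. This was the weakest of the 6 calls and it was lost with each single array left out (limma adjusted p 0.0605 to 0.203).

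Of its relatives, *Apobec1*, which edits the apolipoprotein B message, had a log2 fold change of −0.94 that did not pass (limma adjusted p 0.137). *Apobec2* was not above background on any of the arrays.

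**Figure D2:**
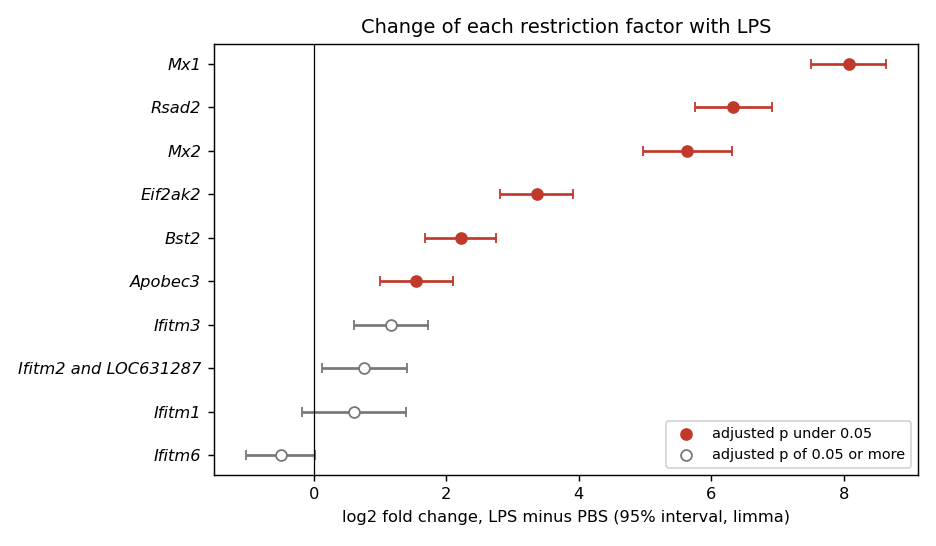
Log2 fold change of each restriction factor, LPS minus PBS, with its 95% interval from limma (x axis), in order of size (y axis); filled red points have an adjusted p under 0.05. The values run from 8.07 for *Mx1* to −0.50 for *Ifitm6*, and the open points are the 4 *Ifitm* probes.

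The *Ifitm* genes encode small membrane proteins that hinder fusion of viral and cell membranes, IFITM3 mainly in endosomes and IFITM1 mainly at the cell surface. None of the 4 passed the test. The signals of *Ifitm3* were 334002 and 407039 with LPS and 182447 and 123152 with PBS. These were 55.9% and 62.1% of the signal of the brightest probe with LPS and 28.7% and 20.6% with PBS. Whether such signals approached the limit of the scanner was not tested. On the log2 scale *Ifitm3* had 18.30 and 18.52 with LPS and 17.35 and 17.15 with PBS, without overlap. This was a log2 fold change of 1.16 (SE 0.22, 95% interval 0.60 to 1.72), or 2.24-fold, whose limma adjusted p of 0.0521 lay just outside the threshold. It passed in 7 of 17 other settings.

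The probe of *Ifitm2* and LOC631287 gave signals of 59361 and 97004 with LPS and 50929 and 39284 with PBS, or 15.97 and 16.46 against 15.42 and 15.47 on the log2 scale. Both LPS arrays were higher, and the LPS arrays differed from each other by nearly as much as LPS replicate 1 did from PBS. In the limma fit over all probes the log2 fold change was 0.76 (SE 0.25, 95% interval 0.12 to 1.40) with an adjusted p of 0.163.

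*Ifitm1* was dim, and PBS replicate 1 was not above background (detection p 0.0731). Its signals were 637 and 1062 with LPS and 486 and 872 with PBS, or 9.79 and 9.91 against 8.87 and 9.62 on the log2 scale. The PBS arrays were further from each other than PBS replicate 2 was from either LPS array. The estimate was a log2 fold change of 0.60 (SE 0.31, 95% interval −0.19 to 1.40, limma adjusted p 0.285).

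*Ifitm6* was the 1 gene of the 9 with both LPS arrays below both PBS arrays. Its signals were 2669 and 4248 with LPS and 6480 and 5675 with PBS. On the log2 scale they averaged 11.92 ± 0.11 with LPS and 12.42 ± 0.02 with PBS (SD, n = 2 each). Its log2 fold change was −0.50 (SE 0.21, 95% interval −1.03 to 0.02) and did not pass (limma adjusted p 0.205).

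These 4 genes lie within 62.1 kb of chromosome 7, in the order *Ifitm2* (140954837 to 140959686), *Ifitm1* (140967429 to 140969827), *Ifitm3* (141009590 to 141010744) and *Ifitm6* (141015812 to 141016892). Along the cluster the log2 fold changes were 0.76, 0.60, 1.16 and −0.50, the first being that of the probe *Ifitm2* shares with LOC631287. *Ifitm3* and *Ifitm6* are 5.07 kb apart, and their 95% intervals did not overlap. The difference between the 2 genes was not tested. Family members outside the list did not pass. *Ifitm5* had a log2 fold change of 0.04, and *Ifitm7* had −1.43 on its brighter probe (limma adjusted p 0.173), each above background on 1 of 2 LPS arrays and 2 of 2 PBS arrays. The other *Ifitm7* probe and *Ifitm10* were not above background on any array. The paralogs share sequence, and whether a probe took up RNA of another member was not tested.

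The remaining relatives and partners did not pass. *Zmpste24*, a protease of the nuclear envelope that works with IFITM proteins, had log2 fold changes of 0.26 and 0.64 on its 2 probes. Among the dynamins, which share their fold with the Mx proteins, *Dnm1l* had 0.14, *Dnm2* −0.11 and *Dnm1* −0.79, with limma adjusted p-values of 0.743, 0.763 and 0.112, and *Dnm3* was not above background on any array. *Dnm1* exceeded background on 1 of 2 LPS arrays. Of the 18 relatives and partners measured, 1 rose (*Cmpk2*), 1 fell (*Prkra*) and 16 did not pass. Over all genes 3.22% rose and 2.32% fell. The median log2 fold change of the 18 was 0.06.

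In order of change the 9 genes ran *Mx1*, *Rsad2*, *Mx2*, *Eif2ak2*, *Bst2*, *Apobec3*, *Ifitm3*, *Ifitm1* and *Ifitm6*. The 95% intervals of neighbours did not overlap for *Mx1* and *Rsad2*, for *Mx2* and *Eif2ak2*, and for *Eif2ak2* and *Bst2*. They overlapped for *Rsad2* and *Mx2* and for every pair of neighbours from *Bst2* down. The 4 differences between an LPS and a PBS array spanned 7.85 to 8.30 for *Mx1* and 0.17 to 1.04 for *Ifitm1*, a wider span for *Ifitm1*, whose signal was not above background on 1 of the 4 arrays.

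**Figure D3:**
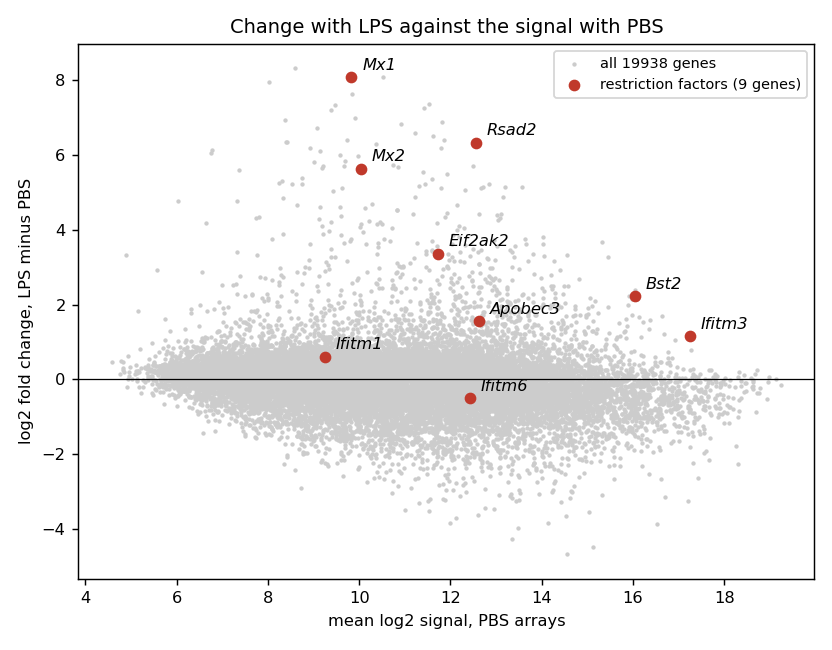
Log2 fold change, LPS minus PBS (y axis), against the mean log2 signal on the PBS arrays (x axis) for all 19938 genes (grey) and the 9 restriction factors (red); a line marks no change. *Mx1*, at 8.07, lies at the upper edge of the cloud, while *Ifitm1* and *Ifitm6*, at 0.60 and −0.50, lie within it.

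Genes of interferon production and signalling were examined next. Whether any change in them came before that of the restriction factors was not tested. Of 15 such genes that were measured, 5 rose and 0 fell, against 3.22% and 2.32% of all genes. Their median log2 fold change was 0.81. *Usp18*, which dampens the interferon receptor, had log2 signals of 16.42 and 17.49 with LPS and 11.93 and 10.87 with PBS, a log2 fold change of 5.55 (SE 0.51, limma adjusted p 0.00897). *Irf7*, a factor that amplifies interferon genes, had 18.05 and 18.03 with LPS and 13.83 and 12.47 with PBS, a log2 fold change of 4.89 (SE 0.47, limma adjusted p 0.0101). *Stat2*, whose product is part of the ISRE-binding complex, had a log2 fold change of 3.57 (SE 0.24, limma adjusted p 0.0046). For these 3 genes the arrays of the groups did not overlap.

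*Ifnb1*, the gene of interferon beta, was above background on both LPS arrays and on neither PBS array, so only a bound can be given. It was at least 2.37-fold higher with LPS. For this bound the mean of the LPS arrays was set against a floor on each PBS array. The floor was the dimmest signal above background or the probe's own, whichever was higher. The limma adjusted p of 0.00873 belongs to the fit without this floor, which used the PBS signals below background. The bound itself was not tested. *Irf9*, the DNA-binding part of the same complex, rose, with a log2 fold change of 1.87 (SE 0.20, limma adjusted p 0.0132). The receptor genes *Ifnar1* and *Ifnar2*, the kinases *Jak1* and *Tyk2*, and *Irf3* and *Ticam1* (TRIF) did not pass.

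Other antiviral effectors were measured for 26 genes of 30 listed, of which 18 rose and 0 fell, against 3.22% and 2.32% of all genes. Their median log2 fold change was 2.45. The largest were *Ifit2* and *Ifit1*, which bind foreign RNA, at 8.08 and 6.84 (limma adjusted p 0.00162 and 0.00481). The ubiquitin-like modifier *Isg15* followed at 6.52, and *Oasl1*, a relative of the oligoadenylate synthetases, at 6.19, with limma adjusted p-values of 0.00162 and 0.0066. *Ifit2* stood next to *Mx1* in the order of all genes, at 8.08 against 8.07. *Ly6e* and *Lgals3bp* had log2 fold changes of 1.96 and 1.92 without passing, larger than that of *Apobec3*, which passed. Their PBS arrays differed from each other by over 1 on the log2 scale.

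**Figure D4:**
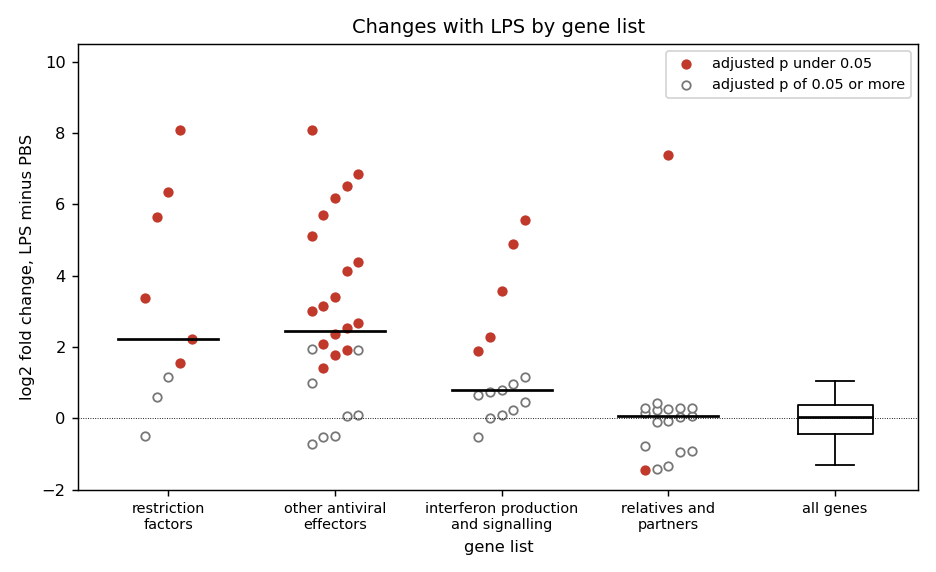
Log2 fold change, LPS minus PBS (y axis), of each measured gene in 4 lists, with filled points for an adjusted p under 0.05 and a bar at each median, beside a box of all genes (quartiles, with whiskers at the 5th and 95th percentiles). The medians are 2.22 for the restriction factors, 2.45 for other antiviral effectors, 0.81 for interferon production and signalling, 0.06 for relatives and partners and 0.04 for all genes.

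Genes with a pattern over the 4 arrays like that of *Mx1*, *Bst2* and *Ifitm3* were sought among the 11903 genes above background on every array. Genes below background with PBS could therefore not be found. Likeness was the Euclidean distance between log2 values, each gene being centred on its PBS mean. Nearest to *Mx1* were *Ifit2* (distance 0.12), *Cd69* (0.64) and *Cmpk2* (1.07), with log2 fold changes of 8.08, 7.65 and 7.38. Nearest to *Bst2* were *Myd88* (0.08), *Birc3* (0.11) and *Psmb10* (0.13), and nearest to *Ifitm3* were *Lce3e* (0.05), *Ankrd17* (0.07) and *Apol10b* (0.09). The neighbours of *Mx1* other than *Ifit2* were further away than those of the other 2 genes. The distances rest on 4 arrays and take in the size of the change as well as its pattern.

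**Figure D5:**
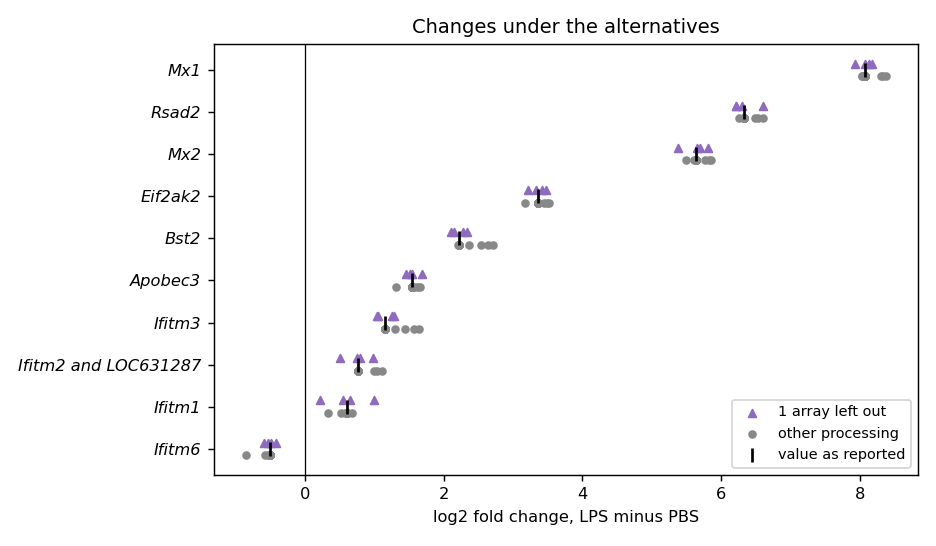
Log2 fold change, LPS minus PBS (x axis), of each restriction factor (y axis) as reported (black mark), with 1 array left out (purple triangles) and under other processing (grey circles). The direction was the same in every setting for all 10 probes, with *Mx1* between 7.93 and 8.38 and *Ifitm6* between −0.85 and −0.42. Settings that changed only the test, a filter or the probe rule left these fold changes as they were, so they could not alter a direction.

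*Mx1*, *Rsad2* and *Mx2* passed in 16 of 17 other settings, *Eif2ak2* in 15, *Bst2* in 14 and *Apobec3* in 9. Leaving out PBS replicate 2 reduced the calls to 3 of the 9 genes, *Mx1*, *Rsad2* and *Mx2*, while the calls over all genes fell to 64. With 2 arrays in each group an exact permutation test cannot give a p below 0.333, so the calls depend on the spread that limma borrows from the other genes.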

How the data were processed

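RNA of 4 samples was labelled with a single dye (Cy5) and hybridised to Mouse OneArray Plus arrays. The authors deposited a linear signal intensity per probe and array together with its detection p-value and a flag that is not explained; how the arrays were scanned and background was handled is likewise not stated in these sources. Since 60 intensities on the array of LPS replicate 1 were 0 or less (lowest −18), signals were treated as background-subtracted. A second deposited table holds the same intensity values times 1 constant per array and served as an alternative. Symbols were updated through RefSeq synonyms (2159 probes updated, 607 kept as given). The brightest probe stood for each gene. Signals were quantile-normalized and log2-transformed, with no filter on dim probes, and groups were compared in limma 3.58.1 (lmFit, eBayes; R 4.3.3 and statmod 1.5.0), two-sided, with Benjamini-Hochberg adjustment. The fit has 2 residual degrees of freedom and a prior of 3.11, so the number of arrays limits precision. The script was tested on simulated data. The genes and lists were chosen with earlier results of these data known; up to 4 genes per list with the largest change past the test, the relatives and partners, and the nearest 3 genes to *Mx1*, *Bst2* and *Ifitm3* are named by rule, and *Ly6e*, *Lgals3bp*, *Irf9* and the signalling genes that did not pass were named after their values were seen. Alternatives covered background correction, scaling, filters, probe rules, the replicate block, the variance model, the methods' t-test and leaving out each array. List counts include a few genes that are not reported here by name.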

Additional observations from a re-analysis of the deposited data

How the results depend on the processing

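Directions of the 10 probes held in all 17 alternatives (15 for the shared *Ifitm2* probe). Only the changes of background correction or scaling and the arrays left out could alter a direction. The other alternatives left these fold changes as they were. Of the log2 fold changes recomputed for them, 144 stayed on the same side of the threshold, 16 were no longer past it and 8 came to pass it. For the t-test without adjustment the threshold was set on the unadjusted p. The count of restriction factors past the test was 6 as reported and 5 to 8 in the alternatives with all 4 arrays, except the methods' t-test after Benjamini-Hochberg adjustment, which called 0 of 9 genes, 0 of 10 probes and 0 of all genes; without adjustment it called 8 of the 9 and 3719 of all genes. Leaving out each array in turn gave 3 to 5 of the 9 genes, 0 to 5 of the 10 probes and 64 to 1032 of all genes, against 1104 with all arrays. Without PBS replicate 1 the counts were 4 genes, 3 probes and 151 of all genes. Without PBS replicate 2 they were 3, 0 and 64, and *Eif2ak2* lost its call (limma adjusted p 0.0640). These fits take the spread of a single array from the group of 2. Scaling to the 75th percentile called 529 of all genes, no scaling 432 and the authors' second set of values 438, each with 5 of the 9. *Apobec3* was the gene lost (limma adjusted p 0.0537, 0.147 and 0.0616). With no scaling the median over all genes moved to −0.35, against 0.04, and in the second table to −0.07. *Ifitm3* passed with normexp (0.0455), cyclic loess (0.0468), the detection filter (0.0394), without spots that carry a flag (0.0489), with the mean of all probes (0.0485) and with trended robust eBayes (0.0496). With the replicate block 6 of 9 genes, 6 of 10 probes and 1165 of all genes passed; it changed no call of the 10 probes. Same-numbered arrays deviated together with a correlation of 0.239, which 2 pairs cannot establish as pairing. The 2 arrays in each group limit the precision of every value, and the dim *Ifitm1* probe is limited further by background.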
